A study of Rattus norvegicus with 12 samples.

Results

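The Hsp70 and Hsp110 chaperones were followed in the calvaria of rats, the flat bones that roof the skull, 6 h after surgery. The family was taken as 10 genes, namely Hspa1a, Hspa1b, Hspa1l, Hspa2, Hspa4, Hspa4l, Hspa8, Hspa9, Hspa13 and Hsph1. Every probe whose gene name on the array equalled one of these symbols was used, which gave 17 of 45598 probes. The probe with the highest mean log2 signal over the 12 arrays stood for its gene, and the others are given beside it.

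The study held 3 groups of 4 one-colour arrays, from rats 10 weeks old. In the laser group a defect of 8 by 3 mm was cut by an Er:YAG laser, whose infrared light water takes up strongly, with 3 strokes of pulses of 127 mJ delivered at 20 Hz. In the bur group a rotating bur made a defect of the same area. Control bone was not cut, and only its periosteum, the membrane over the bone, was removed. Whether the 4 samples of a group are 4 animals is not stated in the labels, and p-values therefore reflect only how far these samples spread.

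Hsp70 proteins bind unfolded stretches of other proteins and release them in a cycle driven by ATP. J-domain co-chaperones bring substrates and speed up ATP hydrolysis, and nucleotide exchange factors, among them the Hsp110 proteins, reopen the chaperone. Cells keep a constitutive Hsp70 at all times, and heat or other protein damage adds an inducible form through heat shock factor 1 (HSF1), which binds heat shock elements in promoters. The inducible members here were Hspa1a, its near-identical neighbour Hspa1b, and Hsph1. The constitutive or tissue-restricted members were Hspa8, Hspa9, Hspa13, Hspa4, Hspa4l, Hspa2 and Hspa1l.

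The promoters with a full heat shock element are shown because this element is the known binding site of HSF1. Of the 2 members that held it in the window searched, 1 is inducible and the other constitutive. The element was searched as GAANNTTCNNGAA on either strand (3 alternating units) and as GAANNTTC or TTCNNGAA (2 units, which every 3-unit match contains), in windows of 250 bases before to 50 after the start from RefSeq on the GRCr8 assembly. Of the 10 members 9 had a promoter in this table, all but Hspa1b. A 2-unit match was found in 5 of the 9 (Hsph1, Hspa8, Hspa9, Hspa2 and Hspa4l), and in 15.85% of all 33469 promoters. A 3-unit match was found in 2 of the 9 (Hsph1 and Hspa8), and in 0.798% of all promoters. The Hspa1a window, chr20:3859506-3859805, held neither. Bases outside it were not searched, so whether Hspa1a has the element elsewhere was not tested. Whether Hspa1a transcripts in these samples begin at this listed start was not tested either, so the window says nothing on a promoter at another start. A match is a run of letters in this window only. The 250 bases before each start are printed 5′ to 3′, with the matched units in capitals.
Hsph1 promoter, GRCr8 chr12:10427118-10427367, + strand: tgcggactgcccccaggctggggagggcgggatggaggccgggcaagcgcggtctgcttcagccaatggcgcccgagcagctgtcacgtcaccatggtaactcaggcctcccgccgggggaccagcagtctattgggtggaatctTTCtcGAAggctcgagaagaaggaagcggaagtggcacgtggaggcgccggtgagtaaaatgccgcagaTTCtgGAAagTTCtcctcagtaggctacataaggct
Hspa8 promoter, GRCr8 chr8:50080264-50080513, + strand: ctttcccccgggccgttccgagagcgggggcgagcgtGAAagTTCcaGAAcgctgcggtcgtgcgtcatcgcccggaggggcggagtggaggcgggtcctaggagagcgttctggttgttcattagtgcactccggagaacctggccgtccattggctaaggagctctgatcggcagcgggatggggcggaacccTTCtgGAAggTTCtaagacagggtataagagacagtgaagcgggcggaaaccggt
In Hsph1 the 3-unit match began at position -36 from the start, and a separate 2-unit match at -105. In Hspa8 the 3-unit matches began at -213 and -55.

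The probes themselves decide which transcript a value stands for. The Hspa1a probes lay on chromosome 20 at chr20:3958289-3958348, the probe used, and at chr20:3956838-3956897, in the coordinates of the array design on RGSCv3.4. The probe named Hspa1b lay at chr20:3959493-3959552, so the 3 probes spanned 2715 bases. Hspa1a and Hspa1b code for nearly the same protein, and whether the Hspa1a probes also caught Hspa1b transcripts was not tested. Both Hspa1a probes have 2 reading frames free of stops over their length, and the single Hsph1 probe, at chr12:5809732-5809791, has 1. Such a count does not place a probe inside or outside the coding part of a transcript, which was not tested. The second Hspa1a probe and the Hsph1 probe are printed 5′ to 3′ because the differences between laser and bur concern these genes.
Hspa1a second probe: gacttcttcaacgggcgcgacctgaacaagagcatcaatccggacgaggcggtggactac
Hsph1 probe: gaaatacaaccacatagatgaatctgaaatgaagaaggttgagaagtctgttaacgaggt
Hspa1a was thus measured at 2 places of its transcript and Hsph1 at 1.

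The share of non-control spots well above background was 67.8% to 73.7% per array, the 75th percentile of the signal was 197.2 to 383.2, and 0 spots were saturated. Of the 17 probes of the family 15 passed the filter, which asked for 4 or more of the 12 arrays well above background, and they covered 8 of the 10 members. Signals below are scaled so that the 75th percentile of each array stands at 249.9, and a level is compared between groups for 1 probe only. All 4 control arrays were on a slide of their own, the cut arrays were split evenly over 2 further slides with 2 of each kind, and spike-in controls were brighter on the cut arrays by 3.21 on the log2 scale. In each comparison with control, treatment and slide thus cannot be told apart, while laser and bur arrays shared slides.

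The cut samples also differed from the controls in markers of other cells, beside every family result against control. Bone markers (10 listed) had a summed scaled signal of 690266 to 731961 in laser, 539607 to 842189 in bur and 310943 to 410533 in control samples, with 10 higher in laser and 9 in bur bone than in control bone. Erythroid markers (7) summed to 1802 to 24662 in laser, 5677 to 29719 in bur and 63799 to 96290 in control samples, with all 7 lower in both cut groups. Granulocyte markers summed to 7863 to 25493 in laser, 10249 to 25966 in bur and 27517 to 35443 in control samples, and 5 of 6 were lower in each cut group. All 6 neural and glial markers, and the 4 adipocyte markers tested of 5, were lower in both cut groups. The neural and glial sum was 38.7 to 104.3 in laser, 31.3 to 914 in bur and 318 to 2991 in control samples, and the adipocyte sum 485 to 1157 in laser, 380 to 1271 in bur and 2521 to 3234 in control samples. Of 6 muscle markers 0 passed in limma against control, at an unadjusted p under 0.05 also 0, and 1 control sample reached a sum of 50509 while the lowest had 471. Between laser and bur 0 genes of these 6 lists passed in limma, with 2 at an unadjusted p under 0.05, 1 of bone and 1 of granulocytes. The part of these markers in the family results was not tested, and in such bulk samples fewer cells of a type and less RNA per cell cannot be told apart.

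Laser ablation was set against uncut bone first. Against control, 5 of the 8 members tested were higher in laser-ablated bone (Hspa1a, Hspa4l, Hsph1, Hspa8 and Hspa13), 1 was lower (Hspa2) and 2 did not pass (Hspa9 and Hspa4). Over all 22926 genes, each by 1 probe, 49.6% passed in either direction, 32.1% as higher and 17.5% as lower. Of the probes called, 61.7% were higher with this scaling and 48.0% with arrays centred on the median of all probes. The median log2 difference was 0.82 over the 8 members and 0.21 over all genes. The groups did not overlap for the 5 higher members and for Hspa2, and 30.6% of all genes had every laser sample above every control sample, while 17.7% had every laser sample below. Tests were limma's moderated test with Benjamini-Hochberg adjustment over 30121 probes at a threshold of 0.05.

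Against control, 3 of the 8 members were higher in bur-drilled bone (Hspa4l, Hspa8 and Hspa13), 2 were lower (Hsph1 and Hspa2) and 3 did not pass (Hspa1a, Hspa9 and Hspa4). Over all genes 50.9% passed, 32.7% as higher and 18.3% as lower. Of the probes called, 62.1% were higher with this scaling and 44.7% with arrays centred on the median. The median log2 difference was 0.31 over the members and 0.23 over all genes. The groups did not overlap for 4 members that lay higher, Hspa1a among them, and for the 2 lower ones, against 30.2% and 15.6% of all genes. Both comparisons share the control samples.

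Between the cut groups, 1 of the 8 members, Hspa1a, was higher in laser-ablated than in bur-drilled bone, 0 were lower and 7 did not pass in limma. Over all genes 0.00436% passed, which is 1 gene, and this gene was Hspa1a. The unadjusted p was under 0.05 for 2247 of 30121 probes and for 4 of the 8 members, Hspa1a, Hsph1, Hspa8 and Hspa13. The groups did not overlap for Hspa1a and Hsph1, both higher in laser bone, as in 2.04% of all genes, and 1.44% lay wholly lower. The median log2 difference was 0.26 over the members and 0.011 over all genes.

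**Figure D1:**
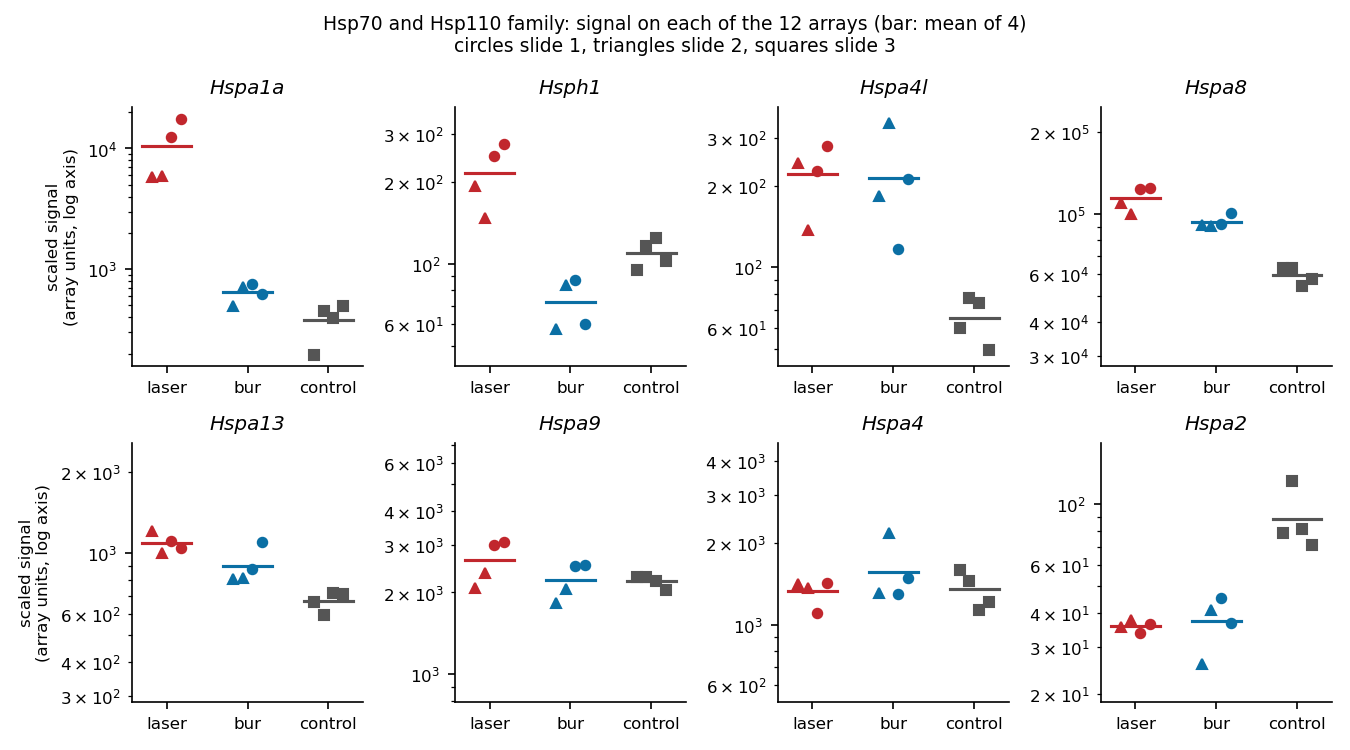
Scaled signal of the 8 members tested on each of the 12 arrays, on log axes that differ between panels, in laser, bur and control bone; points are arrays, the bar is the mean of 4 and the symbol gives the slide. The 4 laser points of Hspa1a lie between 5764 and 17623, all above the bur and control points, while Hspa9 and Hspa4 overlap in all 3 groups.

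Hspa1a, the stress-inducible cytosolic Hsp70, had scaled signals of 5764, 5896, 12498 and 17623 in laser bone. Bur-drilled bone had 499.0, 708.6, 747.8 and 618.2, and control bone 195.8, 448.7, 390.5 and 490.6. Every laser sample was thus far above every bur and control sample, and the lowest bur sample lay just above the highest control sample. Means were 10445 ± 5725 in laser, 643 ± 111 in bur and 381 ± 130 in control samples (SD, n = 4 each). The difference of laser over control was 4.69 on the log2 scale (SE 0.39), 25.8-fold, with limma's adjusted p = 7.21e-05. The difference of laser over bur was 3.87 (SE 0.39), 14.6-fold with a 95% interval of 8.08 to 26.5, and limma's adjusted p = 0.0213. By p it ranked 1 of 30121 probes. Bur over control was 0.82 (SE 0.39), 1.77-fold, with limma's adjusted p = 0.0988 and an interval of 0.98 to 3.20-fold.

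The spread among the laser samples followed the slide. Laser samples 3 and 4, on slide 1, had 12498 and 17623, and samples 1 and 2, on slide 2, had 5764 and 5896. Laser minus bur was 4.45 on the log2 scale within slide 1 and 3.29 within slide 2, with all laser samples above all bur samples on each. With 2 arrays a cut group, limma's adjusted p was 0.195 for slide 1 and 0.477 for slide 2. With slide as a block in the fit it was 0.00876. The call also fell away when any 1 of laser sample 3 or bur samples 1 to 4 was left out, with limma's adjusted p between 0.0753 and 0.148, while the log2 difference stayed between 3.56 and 4.10. With the mean of both Hspa1a probes, and with only the 2 cut groups in the fit, limma's adjusted p was 0.107 and 0.175.

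The second Hspa1a probe gave 262.1, 242.4, 530.4 and 539.2 in laser bone. It gave 22.9, 67.6, 28.6 and 25.0 in bur-drilled bone and 6.67, 25.5, 31.4 and 35.1 in control bone. It showed the same split of laser samples from the rest, with overlapping bur and control samples. Control sample 1, at 6.67, was not well above background for this probe, and the other 3 controls were. Laser over control was 4.14 (SE 0.54, limma's adjusted p = 0.000289) and bur over control 0.64 (SE 0.54, limma's adjusted p = 0.339). Laser over bur was 3.50 (SE 0.54), 11.3-fold, which did not pass (limma's adjusted p = 0.123). Over the 12 arrays the 2 probes had a Pearson correlation of 0.97, across the same arrays and groups. In the authors' deposited table of laser against bur, which holds 24920 probes, this second probe was the only 1 with an adjusted p under 0.05 (log2 3.29, adjusted p = 0.0109). The Hspa1a probe used here is not among those 24920 probes. In the authors' deposited table of bur against control the log2 value of the second probe was 0.44 with an adjusted p of 0.183.

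**Figure D2:**
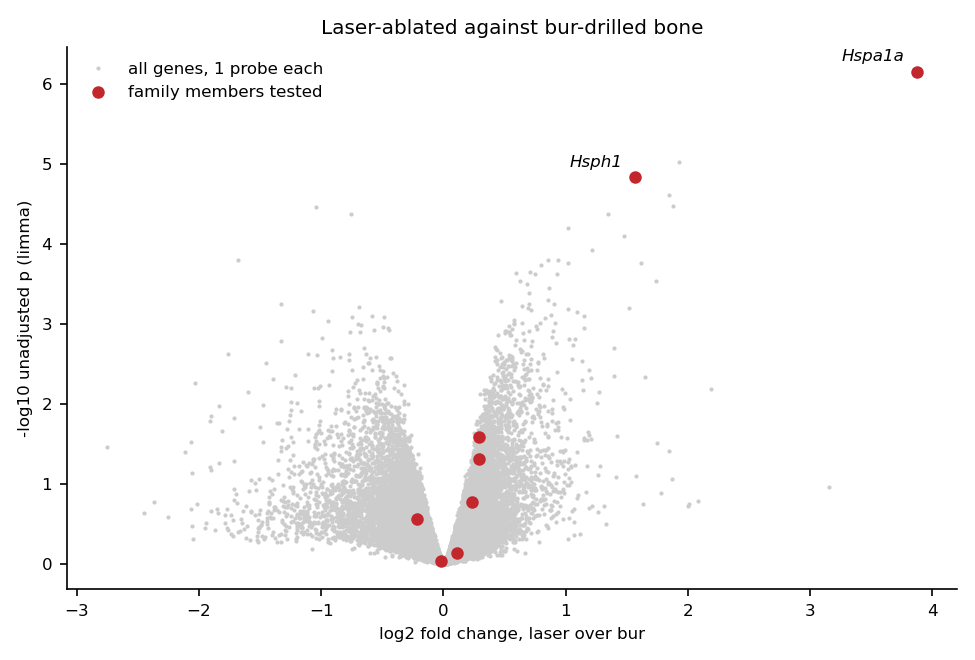
Each gene's log2 difference of laser over bur (horizontal) against the negative log10 of its unadjusted limma p (vertical), 1 probe per gene, with the 8 members tested in red. Hspa1a lies alone at the upper right at 3.87, Hsph1 is next among the members at 1.57, and the other 6 lie between -0.22 and 0.29.

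Hsph1, an Hsp110 protein that acts as a nucleotide exchange factor for Hsp70 and is itself induced by heat, was higher than in control bone after laser ablation and lower after drilling. Laser bone had 192.8, 147.4, 248.5 and 275.0, bur-drilled bone 57.5, 83.6, 87.4 and 60.2, and control bone 94.6, 116.3, 124.0 and 102.6. The 3 groups did not overlap, with laser highest, control next and bur lowest. Means were 216 ± 57 in laser, 72.2 ± 15.5 in bur and 109 ± 13 in control samples (SD, n = 4 each). Hsph1 was higher in laser than in control bone by 0.95 on the log2 scale (SE 0.22), 1.93-fold, with limma's adjusted p = 0.00463. Bur over control was -0.62 (SE 0.22), 1.53-fold lower, with limma's adjusted p = 0.0334. Laser over bur was 1.57 (SE 0.22), 2.96-fold with a 95% interval of 2.13 to 4.11. It ranked 3 of 30121 probes by p but did not pass (limma's adjusted p = 0.123).

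Hsph1 lay higher in laser than in bur bone on both slides, by 1.85 within slide 1 and 1.28 within slide 2. With slide as a block limma's adjusted p was 0.0406. The lower value in bur than in control bone lost its call in 5 of 16 other settings and when bur sample 1 or 4 or control sample 2, 3 or 4 was left out, while its log2 value stayed between -0.82 and -0.35. In the authors' deposited tables Hsph1 was at 1.34 for laser over bur (adjusted p = 0.0612) and at -0.35 for bur over control (adjusted p = 0.107).

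Hspa1b and Hspa1l, the inducible twin of Hspa1a and a relative known mostly from testis, were not measured above background. Their single probes were well above background on 0 of 12 arrays, with scaled signals between 1.69 and 2.86 for Hspa1b and between 1.77 and 9.20 for Hspa1l. No difference was computed for them. The Hspa1b probe carries an accession that the RefSeq table of GRCr8 does not list, so its value bears on that 1 stretch of sequence and not on Hspa1b as a gene.

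Hspa8, the constitutive Hsc70 that also strips clathrin from vesicles, was moderately higher in both cut groups. Its brightest probe had 109981, 100489, 123985 and 124924 in laser bone, 91433, 90754, 91861 and 101362 in bur-drilled bone, and 63570, 63377, 54579 and 57733 in control bone. Both cut groups lay above all controls, and the laser and bur groups met at 100489 and 101362. Laser over control was 0.94 on the log2 scale (SE 0.11), 1.92-fold, with limma's adjusted p = 0.000198. Bur over control was 0.65 (SE 0.11), 1.57-fold, with limma's adjusted p = 0.00111. Laser over bur was 0.29 (SE 0.11), 1.22-fold with a 95% interval of 1.03 to 1.45, which did not pass (limma's adjusted p = 0.602).

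The size of the Hspa8 difference depended on the processing. Over the 4585 brightest of the 22926 genes the median log2 difference was 0.32 for laser over control and 0.30 for bur over control. With quantile normalization Hspa8 was at 0.35 in laser bone (limma's adjusted p = 0.0755) and at 0.21 in bur-drilled bone, and neither passed. In limma on the authors' normalized values, which hold the Hspa8 probe at base 2039 and not the probe used, laser over control was at 0.39 and passed (limma's adjusted p = 0.0117), and bur over control was at 0.15 and did not pass. The same probe was at 1.40 for laser over control in the scaling used here, and the cause of the gap was not tested.

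The 4 Hspa8 probes did not give the same answer, and the sequences of 2 of them are shown for that reason. The 2 brightest begin at bases 2019 and 2039 of the transcript and overlap by 40 bases. The other 2 lie further 5′, at bases 523 and 1792. The probes at bases 523, 1792 and 2019 each have 2 reading frames free of stops, and the probe at base 2039 has 0. The 60 bases of the probe at base 1792 span 314 bases of the genome, so this probe crosses an intron.
Hspa8 probe at base 523: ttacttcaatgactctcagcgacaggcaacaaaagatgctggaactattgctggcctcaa
Hspa8 probe at base 1792: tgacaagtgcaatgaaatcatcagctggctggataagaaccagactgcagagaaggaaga
The probe at base 523 had 2628, 2081, 2253 and 2145 in laser bone, 1702, 1539, 1471 and 1668 in bur-drilled bone, and 2010, 2245, 2085 and 2526 in control bone. Its laser and control samples overlapped and its bur samples lay below both. The laser difference from control was 0.039 (SE 0.12, limma's adjusted p = 0.804), and bur over control was -0.47 (SE 0.12, limma's adjusted p = 0.00792). The probe at base 1792 was at 0.75 in laser and 0.47 in bur-drilled bone against control, and the probe at base 2039 at 1.40 in laser and 1.14 in bur-drilled bone, all with limma's adjusted p under the threshold. Over the 12 arrays the probe at base 523 had a correlation of -0.13 with the probe used, and the other 2 had 0.98 each. For laser over bur the 4 probes lay closer, between 0.27 and 0.51, and 0 passed in limma.

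**Figure D3:**
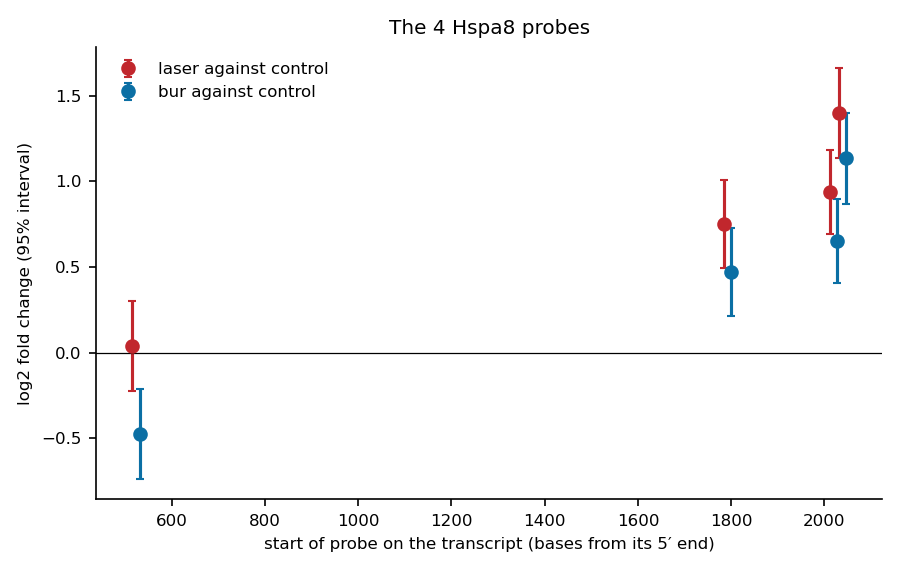
Log2 difference from control of the 4 Hspa8 probes with 95% intervals, for laser and bur (drawn slightly apart), by where the probe begins on the transcript. Both differences are smallest for the probe at base 523, at 0.039 in laser and -0.47 in bur, and largest for the probe at base 2039, at 1.40 in laser and 1.14 in bur.

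Hspa4l, an Hsp110 protein best known from testis, was higher in both cut groups. It had 241.6, 137.3, 226.9 and 278.6 in laser bone, 183.4, 339.6, 116.7 and 211.3 in bur-drilled bone, and 60.1, 77.2, 74.1 and 49.6 in control bone. All 8 cut samples lay above the controls, and the cut groups overlapped widely. Compared with control, laser bone was higher by 1.74 on the log2 scale (SE 0.32), 3.33-fold (limma's adjusted p = 0.00149). Bur over control was 1.62 (SE 0.32), 3.08-fold (limma's adjusted p = 0.00207). Laser over bur was 0.11 (SE 0.32), with a 95% interval of 0.67 to 1.75-fold that leaves a difference in either direction possible. The second probe gave 1.41 in laser and 1.32 in bur-drilled bone against control, and its correlation with the first was 0.99.

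Hspa13, a microsomal Hsp70 relative that lacks the substrate-binding part, had 1214, 1004, 1115 and 1045 in laser bone, 807, 809, 878 and 1104 in bur-drilled bone, and 662, 594, 716 and 707 in control bone. Both cut groups lay above the controls and overlapped each other. Laser over control was 0.71 (SE 0.13, limma's adjusted p = 0.00164) and bur over control 0.42 (SE 0.13, limma's adjusted p = 0.0216). The bur call did not hold without bur sample 4 or control sample 2, nor with slide as a block, with slide 2 only (0.27) or with arrays centred on the median of all probes (0.21). The dimmer second probe was at 0.052 in laser bone, which did not pass, and at 0.54 in bur-drilled bone (limma's adjusted p = 0.0341). The 2 probes thus put the cut groups in opposite order, with laser over bur at 0.29 and -0.49, neither of which passed, and their correlation was 0.095.

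Hspa2, an Hsp70 needed for sperm formation, was the only member lower in both cut groups. It had 35.5, 37.7, 33.5 and 36.3 in laser bone, 25.8, 40.7, 45.3 and 36.7 in bur-drilled bone, and 78.3, 121.9, 81.2 and 71.0 in control bone. All cut samples lay below the controls. Laser over control was -1.27 (SE 0.20), 2.41-fold lower (limma's adjusted p = 0.000727), and bur over control was -1.25 (SE 0.20), 2.37-fold lower (limma's adjusted p = 0.000825). Laser over bur was -0.024 (SE 0.20), with a 95% interval of 0.72 to 1.34-fold. The call against control held in all 16 other settings and with any 1 array left out, in both comparisons.

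Hspa9, the mitochondrial Hsp70 that pulls proteins through the inner membrane, and Hspa4, an Hsp110 exchange factor, did not pass in any comparison. Hspa9 lay between 2081 and 3066 in laser bone, between 1823 and 2520 in bur-drilled bone and between 2043 and 2288 in control bone. Its log2 differences by the probe used were 0.23 for laser over control (SE 0.16), 0.00095 for bur over control and 0.23 for laser over bur. With only the laser arrays of slide 1 it passed against control (0.46, limma's adjusted p = 0.0268). Within each cut group its 2 samples on slide 1 were higher than its 2 on slide 2, 3001 and 3066 against 2081 and 2350 in laser bone and 2499 and 2520 against 1823 and 2058 in bur-drilled bone. The second Hspa9 probe lay between 731 and 987 in laser bone, between 769 and 944 in bur-drilled bone and between 779 and 971 in control bone, so all groups overlapped. Its log2 differences were -0.079 for laser over control, -0.091 for bur over control and 0.012 for laser over bur (SE 0.14 each), with limma's adjusted p of 0.652, 0.593 and 0.996, and its correlation with the probe used was 0.46. Hspa4 lay between 1110 and 1422 in laser bone, between 1302 and 2179 in bur-drilled bone and between 1137 and 1596 in control bone. Its 95% interval for laser over control was 0.75 to 1.31-fold and for bur over control 0.87 to 1.52-fold.

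**Figure D4:**
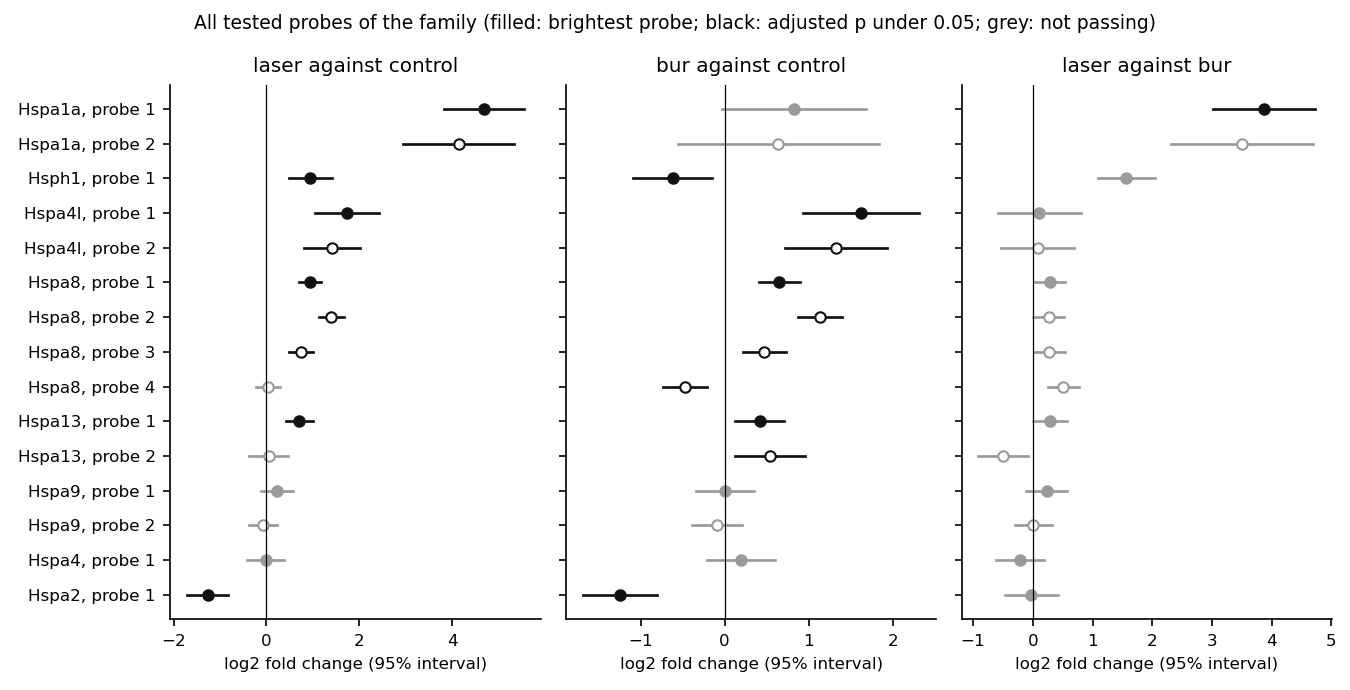
Log2 differences with 95% intervals of the 15 family probes tested in each comparison, on axes that differ between panels; filled points are the probes used, and black points have an adjusted p under 0.05. Only the first Hspa1a probe is black for laser against bur, and the probes of Hspa8 and Hspa13 lie apart from each other.

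Set against each other, both inducible members tested were higher in laser bone than in control bone, with a median log2 difference of 2.82. This median lies between Hspa1a at 4.69 and Hsph1 at 0.95. Among the other members Hspa4l (1.74) lay above Hsph1, Hspa8 (0.94) lay close to it, and the rest lay lower. Of the 6 constitutive or tissue-restricted members tested 3 were higher and 1 lower, with a median of 0.47. Among all genes 32.1% were higher and 17.5% lower, with a median of 0.21. In bur-drilled bone 0 of the 2 inducible members were higher in limma and 1 was lower, and 0 were higher at an unadjusted p under 0.05. Hspa1a was at 0.82 and Hsph1 at -0.62 there, with a median of 0.10. Of the constitutive or tissue-restricted members 3 were higher and 1 lower, with a median of 0.31. Among all genes 32.7% were higher and 18.3% lower, with a median of 0.23. For laser over bur the medians were 2.72 for the inducible members (Hspa1a at 3.87, Hsph1 at 1.57) and 0.17 for the other members. In limma 1 of 2 passed against 0 of 6. The unadjusted p was under 0.05 for 2 of 2 against 2 of 6. Among all genes 0.00436% passed for laser over bur, and 2247 of 30121 probes had an unadjusted p under 0.05. Groups of 2 and 6 genes allow a description only.

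Of 10 J-domain proteins, 2 were higher and 3 lower in laser bone than in control bone, where 32.1% of all genes were higher and 17.5% lower. In bur-drilled bone 1 was higher and 4 lower, where 32.7% of all genes were higher and 18.3% lower. Their median log2 difference was 0.13 in laser and -0.11 in bur-drilled bone, where all genes had 0.21 and 0.23. Dnaja4, a J-domain protein that partners Hsp70, had 56.4 to 74.2 in laser bone, 43.7 to 83.3 in bur-drilled bone and 208.5 to 312.4 in control bone. It was lower by log2 differences of -1.96 in laser and -2.05 in bur-drilled bone (limma's adjusted p = 0.000113 and 0.000123). Dnajb2 was lower too, at -1.37 in laser and -1.34 in bur-drilled bone. Dnaja1, a major cytosolic partner of Hsc70, had 1145 to 1515 in laser bone, 695 to 881 in bur-drilled bone and 793 to 923 in control bone, with every laser sample above the rest. It was higher in laser bone by 0.58 (limma's adjusted p = 0.00470), and did not pass in bur-drilled bone (-0.12). Dnajb4 passed as lower in bur-drilled bone (-0.63) and not in laser bone (-0.26). Dnajb1, the heat-inducible partner of Hspa1a, was at 0.23 in laser and -0.10 in bur-drilled bone, and neither passed.

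Among 11 exchange factors and other partners, 4 were higher and 2 lower in laser bone, and 4 were higher and 3 lower in bur-drilled bone, with medians of 0.22 in laser and 0.0055 in bur-drilled bone. The shares of all genes were 32.1% higher and 17.5% lower in laser bone and 32.7% higher and 18.3% lower in bur-drilled bone, so these counts were near the background. Bag2, which releases nucleotide from Hsp70 and holds back the ubiquitin ligase Stub1, was higher by 1.18 in laser and 1.02 in bur-drilled bone on the log2 scale. Sil1, the exchange factor of the endoplasmic reticulum, was higher by 1.13 in laser and 1.20 in bur-drilled bone. Bag5 was higher by 0.62 in laser and 0.36 in bur-drilled bone. St13, which stabilises the ADP-bound form of Hsp70, was lower, at -0.51 in laser and -0.71 in bur-drilled bone, with 190.5 to 242.9 in laser bone, 164.5 to 207.1 in bur-drilled bone and 286.7 to 353.8 in control bone.

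Of 12 other genes known as HSF1 targets, 6 were higher and 2 lower in laser bone, and 4 were higher and 3 lower in bur-drilled bone, with medians of 0.37 in laser and 0.14 in bur-drilled bone. The shares of all genes were again 32.1% higher and 17.5% lower in laser bone and 32.7% higher and 18.3% lower in bur-drilled bone. The bur counts and the laser count of lower genes were near this background. The laser count of higher genes lay above it. The list holds 12 genes and was chosen with earlier results known, so this is a description only. Cryab, a small heat shock protein, had 10165 to 14858 in laser bone, 5467 to 9725 in bur-drilled bone and 2174 to 4945 in control bone, so the 3 groups did not overlap. It was higher by 2.11 in laser and 1.34 in bur-drilled bone (limma's adjusted p = 0.000223 and 0.00204). Serpinh1, the collagen chaperone of the endoplasmic reticulum, was higher by 1.79 in laser and 1.35 in bur-drilled bone. Cacybp, a partner of the ubiquitin machinery, was lower, at -0.77 in laser and -1.18 in bur-drilled bone.

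Of the 3 heat shock factors, Hsf2 (0.68 in laser, 0.51 in bur-drilled bone) and Hsf4 (0.99 in laser, 0.98 in bur-drilled bone) were higher than in control bone. Hsf1, whose protein is switched on without new transcription, did not pass (0.33 in laser, 0.38 in bur-drilled bone). These calls and those below stand beside 32.1% of all genes higher and 17.5% lower in laser bone. In bur-drilled bone 32.7% of all genes were higher and 18.3% lower. Of 5 other genes of the Hsp70 superfamily, 0 passed in laser bone in limma, at an unadjusted p under 0.05 also 0, and 1 was lower in bur-drilled bone, with medians of -0.012 in laser and -0.032 in bur-drilled bone. That gene was Hspa14, a ribosome-associated Hsp70, at -0.28 in laser and -0.58 in bur-drilled bone. Hspa5, the Hsp70 of the endoplasmic reticulum, was at -0.012 in laser and -0.15 in bur-drilled bone and did not pass. For laser over bur 0 genes of these 5 lists passed in limma. The unadjusted p was under 0.05 for 3 J-domain proteins, 1 partner, 2 HSF1 targets, 0 heat shock factors and 0 other superfamily genes. The smallest p among J-domain proteins was that of Dnaja1 (0.71 for laser over bur, limma's adjusted p = 0.275), and among HSF1 targets that of Cryab (0.77, limma's adjusted p = 0.532).

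**Figure D5:**
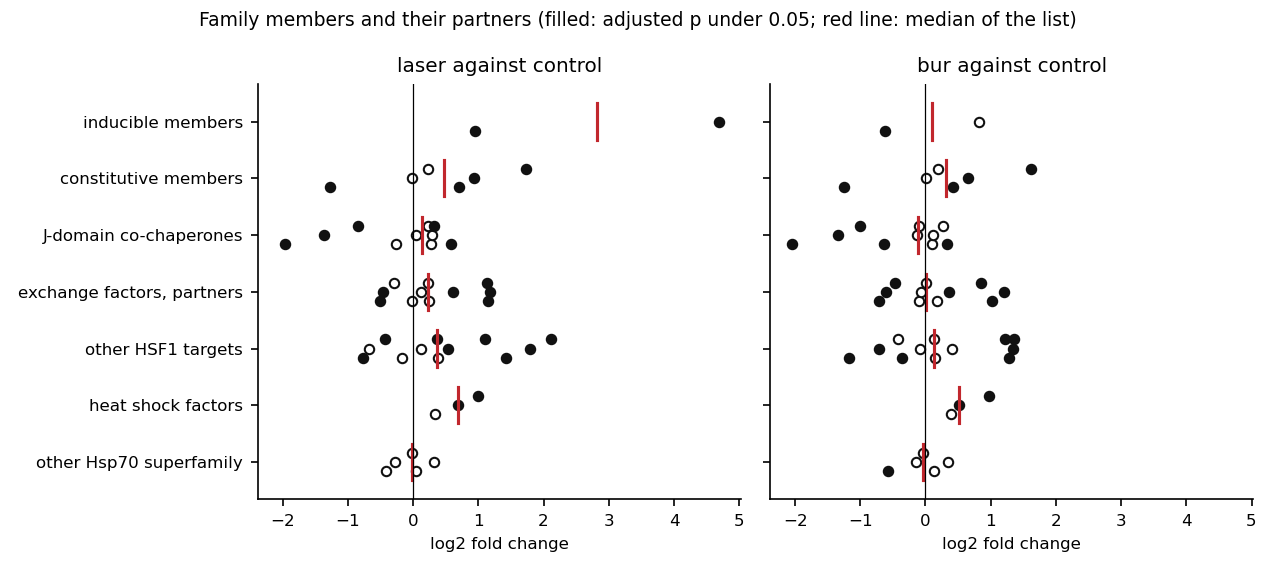
Log2 differences from control of the family and 5 lists of related genes, in laser (left) and bur-drilled bone (right); each point is a gene, filled where its adjusted p is under 0.05, and the red line is the median of the list. Hspa1a stands apart at 4.69 in laser bone, where most lists spread to both sides of 0.

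The genes whose signal followed Hspa1a most closely over the 12 arrays, among 17732 genes searched, were Zdhhc5 (Pearson r = 0.97), Egr1 (0.96), Dmac1 (0.95), Dmp1 (0.95) and Fam20c (0.95). Of these, Egr1, an immediate early transcription factor, was at 1.34 for laser over bur, Dmp1, a phosphoprotein of the mineralised matrix, at 1.93, and Fam20c, a kinase of secreted proteins, at 1.22. Zdhhc5, the closest, was at only 0.30 and Dmac1 at 0.39. Dmp1 ranked 2 and Egr1 ranked 8 by p for laser over bur, and neither passed (limma's adjusted p = 0.123 each). The genes that followed Hspa8 were Klf4 (0.99), Ubl4a (0.98), Golga7 (0.98), Gtf2e1 (0.98) and Ablim3 (0.98). Klf4, a zinc-finger transcription factor, was at 1.54 in laser and 0.98 in bur-drilled bone against control. These correlations span 3 groups on 3 slides and are a description of the 12 arrays.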

How the data were processed

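Total RNA of calvarial bone, 200 ng per sample, was labelled with Cy3 and hybridised to 12 arrays, 4 each from laser, bur and control bone, grouped by their titles. The deposited values are spot intensities and, per the file headers, the output of Agilent Feature Extraction (version 11.0.1.1) after background subtraction. The authors also deposited normalized log2 values and tables of their comparisons with log2 fold changes, p-values and adjusted p-values for 24920 probes. No source used here states their model.

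Control and outlier-marked spots were left out, the spots of a probe were averaged (45598 probes), and each array's 75th percentile of log2 processed signal was subtracted. Scaled signals set that percentile to its geometric mean over arrays, 249.9. Probes well above background on at least 4 of 12 arrays were kept, 30121 in all. The test was that of limma (version 3.58.1, R 4.3.3; 12 arrays in 1 fit, 2-sided, Benjamini-Hochberg adjustment over all kept probes). A change shared by most genes is removed by this scaling. With 4 arrays a group, precision is set by their number. Probe coordinates come from the design of the array (RGSCv3.4), and 14 of the 17 family probes carry an accession in the RefSeq table.

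The members and gene lists were chosen with earlier results of these data known. From each list up to 3 genes with the smallest adjusted p in a comparison were named, and 5 genes each most like Hspa1a and Hspa8. Alternatives covered the background correction, the scaling, the filter, the choice of probe, the fit, blocks for slide and replicate number, the authors' values and leaving out each array. Centring on the median, 1 slide of cut arrays at a time, and the further probes were added after seeing the data. On simulated data with 200 changed probes among 30121, 88% of 4-fold and 50% of 2-fold changes of laser over bur were recovered, with 9 false calls. In the data themselves 1 probe was called for laser over bur. Recovery with so few changed probes was not tested, so these shares need not hold for that comparison.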

Additional observations from a re-analysis of the deposited data

Results flagged for a closer look

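Hspa1a differed between the cut groups in its response against control, by 3.87 on the log2 scale in the direct test of laser minus bur (limma's adjusted p = 0.0213, higher in 4 of 4 laser samples than in all bur samples).

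Hspa8 stood apart in bur sample 4, which had a scaled signal of 101362 while the other 3 bur samples lay between 90754 and 91861. Chance alone marks about 1 in 20 such groups of 4.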

How the results depend on the processing

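Against control, the calls of Hspa1a, Hsph1, Hspa4l, Hspa13 and Hspa2 in laser bone and of Hspa4l and Hspa2 in bur-drilled bone held in all 16 other settings. For Hspa1a the authors' values hold only the second probe. In comparisons with control the slide block was a correlation of 0.148 among arrays of a slide. It left Hspa1a at 4.69 for laser and cannot separate slide from treatment. For laser over bur the slide was a term of its own in the fit. The count of members called for bur over control was 5, and 3 with the authors' values or slide as a block (3 to 5 with 1 array left out, 3 without bur sample 4 or control sample 2). For laser over bur the count of probes called was 1, and 6 with normexp, 10 with slide as a block, 2 with an intensity trend, and 0 with the mean of probes, with only 2 groups in the fit or with slide 1 only (0 to 1 with 1 array left out). The count of members called there was 1, and 2 with normexp or slide as a block, and 0 with the mean of probes, only 2 groups, slide 1 only or slide 2 only (0 to 1 with 1 array left out). The slide 1, slide 2 and left-out fits hold fewer samples, and for the other settings the cause was not tested.

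Differences near 0 changed sign. Laser over control Hspa4 was at 0.038 with normexp and 0.053 with slide 2 only (-0.096 to 0.067 with 1 array left out), and Hspa9 at -0.13 with the authors' values, which hold only its second probe (-0.079 for laser and -0.091 for bur in the scaling used here). Bur over control Hspa9 was at -0.19 with quantile normalization, -0.082 with the percentile over probes detected on all arrays, -0.021 with normexp, -0.29 with the authors' values of the second probe, -0.045 with the mean of probes, -0.21 when centred and -0.19 with slide 2 only (-0.063 to 0.092 with 1 array left out), and Hspa4 at -0.0097 when centred. Laser over bur Hspa2 was at 0.060 with quantile normalization, 0.019 with normexp and 0.17 with slide 2 only (-0.19 to 0.081 with 1 array left out), Hspa13 at -0.10 with the mean of probes, and Hspa4l at -0.053 with array weights and -0.45 with slide 2 only (-0.14 to 0.37 with 1 array left out). None of these passed, and the cause was not tested.

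Same-numbered laser and bur samples lay on the same slide, which also held the samples of 1 other number, and all control samples lay on another slide. Their correlations for laser against bur were 0.56, 0.026, 0.51 and 0.37, and 3 of the 4 laser samples were most like the bur sample of their own number. With the replicate number as a block Hspa1a passed for bur over control (0.82, limma's adjusted p = 0.0383), which made 6 members called, and no other member's call changed. Probes called were then 16005 for laser over control, 16573 for bur over control and 1 for laser over bur. Centring on the median moved every difference from control by the median of all probes, 0.16 for laser and 0.21 for bur. Signal over background limits Hspa1b and Hspa1l, for which these arrays give no difference.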
